A study of Mus musculus with 42 samples.

Results

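The extraembryonic ectoderm (ExE) of the E6.5 mouse embryo was compared with the trophectoderm (TE) of the E3.5 blastocyst, the tissue it descends from. A gene was compared when its 2 alleles summed to at least 5 FPKM in either tissue and to more than 0 in both, where FPKM is fragments per kilobase of transcript, scaled to library size. By this rule 6570 of the 24083 listed genes were compared. All embryos were female and wild type, from C57BL/6N mothers and PWK/PhJ fathers, so maternal and paternal alleles were listed apart. The cross was made in 1 direction only, and parent of origin cannot be told apart from strain. Polyadenylated RNA was amplified by Smart-seq2, a full-length protocol for small amounts of RNA. The ExE column stood for 2 samples and the TE column for 3, pooled by the authors, out of 42 samples in the study. The other columns used for orientation were morula (3 samples), E3.5 inner cell mass (ICM, 2), E6.5 epiblast (Epi, 1) and E6.5 visceral endoderm (VE, 3). The labels do not say how the tissues were separated.

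The trophectoderm is the outer epithelium of the blastocyst. It pumps fluid into the cavity, mediates attachment to the uterus, and after implantation its polar part, next to the inner cell mass, grows into the ExE. The ExE keeps a population of trophoblast stem cells under Fgf signals from the epiblast, secretes Bmp and protease signals to the epiblast in return, and later contributes to the placenta. The mural part of the trophectoderm turns into giant cells instead.

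Because each tissue had 1 pooled column per allele, no spread between samples could be computed and no difference was tested. A gene is said here to have risen or fallen when its total differed at least 2-fold on the scale of FPKM plus 1, and log2 ratios are ExE over TE on that scale. In bulk tissue, fewer cells that express a gene and less RNA per cell cannot be told apart. A value of 0 can also mean that no read told the alleles apart, so such genes are named by level only.

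Of the 6570 genes, 1276 rose (19.4%) and 1116 fell (17.0%). Counts of list members given below are to be read beside these shares. Among compared genes, large differences were more often decreases. At 4-fold or more, 365 genes rose (5.56%) and 508 fell (7.73%), and at 32-fold the counts were 16 and 55. The rule left out 283 genes at 5 FPKM or more in ExE and 0 in TE, and 44 genes the reverse way. All of these would pass 4-fold on FPKM plus 1, so the lean towards decreases holds for compared genes only. The median log2 ratio of all compared genes was 0.18, so a list with a median near that value had a centre like that of the rest. Its members can still have moved in both directions. When ratios were centred on the autosomal median, 1004 genes rose and 1313 fell, and the share of increases among the genes that moved went from 53.3% to 43.3%. At the edges of the rule, Sepsecs, with a larger total of 5.0006 FPKM, was compared and Nr2c1, with 4.99 FPKM, was not. Ntmt1 counted as risen with a log2 ratio of 1.0001, and Taf5l, at 0.9991, did not.

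3 features of the ExE column touch the results. First, 180 genes at 5 FPKM or more in ExE were listed at 0 in every other column of the table, the E9.5 yolk sac included. The other columns from 8-cell embryo to E6.5 held between 0 and 3 such genes each. The 180 summed to 41483 FPKM, or 9.28% of the ExE column, and included 15 ribosomal protein genes. Of them, 58 had all their expression on the maternal allele, 41 had all of it on the paternal allele and 17 had the same value on both, against 22, 7 and 15 of the other 5910 genes at 5 FPKM or more. None of these 180 genes enters a ratio, since TE was at 0. Second, of 22 fixed markers of primitive and visceral endoderm, the 21 at 5 FPKM or more in VE stood in ExE at a median of 9.39% of their VE level (range 6.37% to 12.8%). Their summed level was 1353 FPKM in ExE and 14232 FPKM in VE, and none was at 0 in ExE. VE is the layer that covers the ExE at E6.5. With 9.39% of the VE column subtracted from ExE, 1080 genes rose, all of them among the 1276, and 1230 fell. The share was set by these endoderm markers, so for them the drop towards 0 was fixed in advance. Genes that were no longer counted as risen include Amot, Ctsh, Ctsz, Apom, Amn, Hhex, Dusp6, Rplp1 and Ntmt1, which no longer stood 2-fold above TE. They also include Smad1 (2.99 FPKM after subtraction), Podxl (3.41 FPKM), Meg3 (3.32 FPKM) and Otx2 (3.89 FPKM), which no longer reached 5 FPKM. The last is Rn45s, the precursor of ribosomal RNA, which had the highest level of all genes in ExE, at 11648 FPKM, and stood at 27882 FPKM in VE. It was listed at 0 in TE, Epi, ICM, morula and the 8-cell embryo, so it gives no ratio. The part of these features in the results below was not tested beyond the subtraction.

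Markers of other cell types were less even. The 11 epiblast markers at 5 FPKM or more in Epi stood in ExE at a median of 19.4% of their Epi level, from 1.55% to 84.4%. In TE, 12 ICM markers stood at a median of 11.9% of their ICM level, from 0% to 129%. Decidua and blood markers were near 0, apart from Alpl, an alkaline phosphatase, with 8.00 FPKM in ExE and 182 FPKM in TE.

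**Figure D1:**
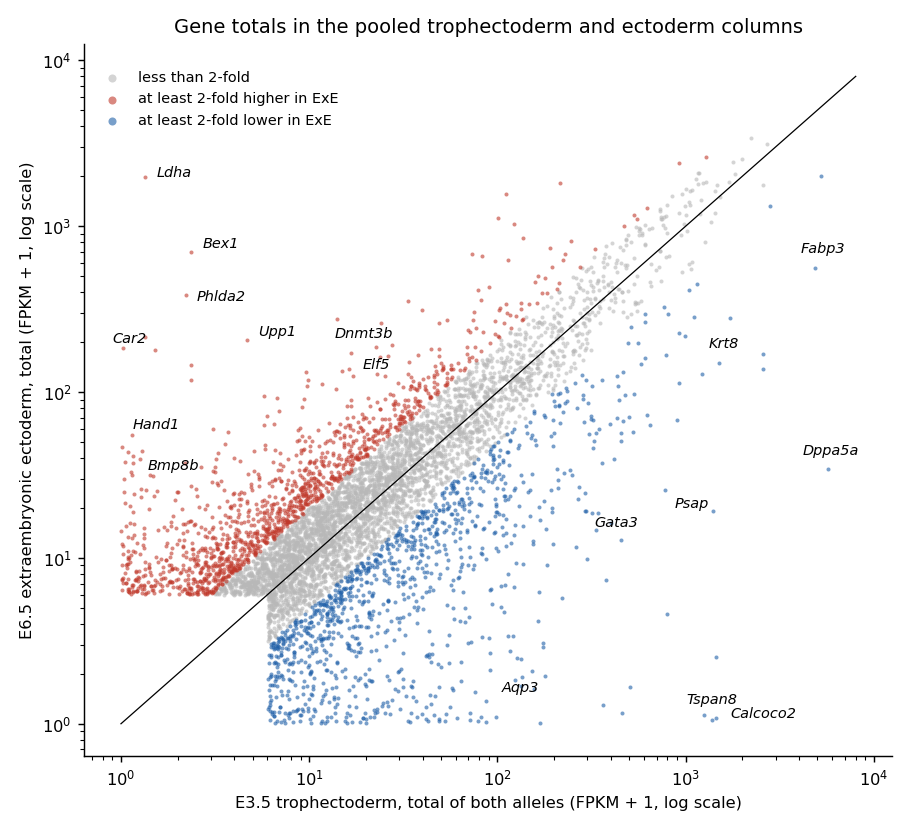
Total FPKM plus 1 of both alleles in TE (horizontal) and ExE (vertical) for the 6570 compared genes, both on log axes, with genes at least 2-fold higher, at least 2-fold lower and between in separate colours. Ldha, at 0.348 FPKM in TE and 1972 in ExE, and Calcoco2, at 1453 in TE and 0.0777 in ExE, lie farthest from the diagonal.

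The tissue labels were checked against markers. Elf5, a trophoblast factor, was at 124 FPKM in ExE against 0 in Epi and 0.260 FPKM in VE, and Gata3, a trophectoderm factor, was at 292 FPKM in TE against 71.8 FPKM in ICM. Of 20 measured trophectoderm markers 16 were compared: 11 fell, none rose, and the median log2 ratio was -3.33. Of 18 measured ExE markers 14 were compared: 7 rose and 1 fell, with a median of 1.60, and a further 4, among them Bmp4, Nr0b1 and Spry4, were listed at 0 in TE and at 5 FPKM or more in ExE. Eomes, Cdx2, Fgfr2 and Tfap2c stand in both marker lists. Both lists were drawn up to mark these tissues, so their directions serve as a check of identity only.

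The largest increase was that of Ldha, the subunit of lactate dehydrogenase that favours lactate production. Its total was 0.348 FPKM in TE and 1972 FPKM in ExE, a log2 ratio of 10.52, and both alleles moved (maternal 9.80, paternal 9.61). Ldha was also low before E6.5 elsewhere, at 0.837 FPKM in morula and 9.80 FPKM in ICM, and high in Epi (2451 FPKM) and VE (962 FPKM). Next came Bex1, an X-linked gene of a family of small adaptor-like proteins, with 1.37 FPKM in TE and 700 FPKM in ExE. Morc4, an X-linked chromatin ATPase of the Morc family, had 0.0241 FPKM in TE and 182 FPKM in ExE, and 0.345 FPKM in Epi and 21.4 FPKM in VE. Phlda2, an imprinted gene that restrains placental growth, had 1.22 and 383 FPKM, and the imprinted noncoding RNA H19 had 0.338 and 213 FPKM. Car2, a carbonic anhydrase, had 0.524 and 178 FPKM, and Emb, a partner of lactate transporters at the plasma membrane, had 1.34 and 144 FPKM. H19, Car2 and Emb were higher still in VE, at 529, 288 and 853 FPKM. With the VE share subtracted their log2 ratios were 6.94, 6.64 and 4.78. The others among the 10 largest were Mest, Inpp1, an inositol phosphatase (0.149 FPKM in TE and 53.9 FPKM in ExE), and Hand1.

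The largest decrease was that of Calcoco2, an autophagy receptor, with 1453 FPKM in TE and 0.0777 FPKM in ExE (log2 ratio -10.40). It was as high in morula (1590 FPKM) and ICM (1304 FPKM) and at or near 0 in Epi (0 FPKM) and VE (0.252 FPKM). BC053393 had 1383 FPKM in TE and 0.0559 FPKM in ExE, and Tspan8, a tetraspanin of epithelial surfaces, had 1256 and 0.128 FPKM. Both were lower in morula (1.13 and 2.49 FPKM) and ICM (165 and 84.4 FPKM) than in TE. Khdc3 and Dppa3, maternal-effect genes that oocytes and cleavage embryos contain, had 456 and 508 FPKM in TE and 0.154 and 0.668 FPKM in ExE. Slc15a2, a peptide transporter, went from 362 to 0.302 FPKM, and Akr1b8, an aldo-keto reductase, from 794 to 3.61 FPKM. Dppa5a, an RNA-binding protein of early embryos and pluripotent cells, had the highest level of all genes in TE, at 5715 FPKM, and 33.1 FPKM in ExE. 2210409E12Rik and Gm12169 complete the 10 largest decreases. Near-identical copies can share reads, which leaves members of gene families such as Dppa5a, Gapdh and the ribosomal proteins less certain.

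44 genes at 5 FPKM or more in TE were listed at 0 in ExE. They included BC051665 (1423 FPKM in TE), Dppa1 (485 FPKM), the phosphatidylserine receptor Havcr1 (420 FPKM), and the PRAME-family genes Pramel6 (234 FPKM) and Pramel7 (175 FPKM). BC051665 was also low in morula (1.26 FPKM) and ICM (3.46 FPKM), whereas Havcr1 had 19.7 FPKM in morula and 111 FPKM in ICM. In the list of cleavage-stage genes, 24 were measured, 7 stood at 5 FPKM or more in TE and 0 in ExE, and 3 of the 5 compared fell. Dppa4, a chromatin-associated pluripotency factor, was the exception that rose, from 21.8 to 86.5 FPKM.

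Promoter sequences are shown for the gene with the largest increase and for 3 genes that mark the comparison: Bmp4, the ExE signal listed at 0 in TE; Elf5, the trophoblast stem cell factor that rose; and Krt8, the keratin that fell. Each is the 250 bases before a RefSeq transcript start (GRCm38.p6), 5′ to 3′ on the strand of the gene. Capitals mark matches, on either strand, to 6 motifs searched: AGATAA for zinc finger factors such as Gata3, GCCNNNGGC for Tfap2 factors, GGAATG for Tead4 and its relatives, CCGGAAG for Ets factors, ACGTG as the core of the hypoxia response element, and TTTATNG for Cdx2.
Ldha (chr7:46845554-46845803, plus strand): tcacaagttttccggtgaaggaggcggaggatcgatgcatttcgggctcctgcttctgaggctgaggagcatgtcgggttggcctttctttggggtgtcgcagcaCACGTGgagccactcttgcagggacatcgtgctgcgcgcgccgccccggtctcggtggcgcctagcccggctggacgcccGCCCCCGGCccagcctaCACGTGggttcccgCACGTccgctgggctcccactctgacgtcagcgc
Bmp4 (chr14:46390670-46390919, minus strand): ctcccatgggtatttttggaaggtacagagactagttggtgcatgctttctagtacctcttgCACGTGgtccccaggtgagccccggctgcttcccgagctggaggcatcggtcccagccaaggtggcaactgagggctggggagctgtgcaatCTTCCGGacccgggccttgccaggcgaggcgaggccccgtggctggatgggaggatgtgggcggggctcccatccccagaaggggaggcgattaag
Elf5 (chr2:103411848-103412097, plus strand): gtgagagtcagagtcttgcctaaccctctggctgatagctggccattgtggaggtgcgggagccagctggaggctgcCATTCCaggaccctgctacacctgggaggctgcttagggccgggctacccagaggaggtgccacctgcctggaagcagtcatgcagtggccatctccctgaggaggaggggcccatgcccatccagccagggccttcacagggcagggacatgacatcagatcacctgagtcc
Krt8 (chr15:102004343-102004592, minus strand): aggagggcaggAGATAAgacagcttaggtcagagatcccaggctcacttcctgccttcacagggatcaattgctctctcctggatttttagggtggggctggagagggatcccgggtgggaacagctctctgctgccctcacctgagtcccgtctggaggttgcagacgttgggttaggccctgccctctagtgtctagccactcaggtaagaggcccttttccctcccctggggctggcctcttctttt

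The Ldha window held 5 ACGTG matches and 1 Tfap2 match. CACGTG reads the same on both strands, so each copy of it counts as 2 matches, and it is also an E-box. Bmp4 held 2 ACGTG matches, at a single CACGTG, and 1 Ets match. Elf5 held 1 Tead match and Krt8 held 1 AGATAA match, while no motif searched was found in the window of Eomes. Ldha and Elf5 each have a second RefSeq start (windows chr7:46846832-46847081 and chr2:103423818-103424067), in which no motif searched was found, and the first window of each is the one shown. ACGTG was found in 16.6% of 32851 promoter windows of this length, in 23.7% of those of compared genes, in 21.9% of those of genes that rose and in 19.02% of those of genes that fell. Among glycolysis genes that rose it was found in 9 of 25 windows (36.0%), and among lysosome genes that fell in 8 of 17 (47.1%). A match describes letters only and shows no binding.

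Trophoblast transcription factors split in both directions. Of 25 measured, 21 were compared: 7 rose and 5 fell, beside 19.4% and 17.0% of all genes, and the median log2 ratio was -0.47. The factors that fell were those of the blastocyst epithelium. Gata3, which drives trophectoderm genes, had 292 FPKM in TE and 18.2 FPKM in ExE (log2 ratio -3.93), and its relative Gata2 had 109 and 5.88 FPKM (-4.00). Klf5, needed for early trophectoderm, went from 269 to 25.6 FPKM and Tfap2a from 9.57 to 0.222 FPKM. Cdx2, the factor that sets trophectoderm apart from the inner cell mass, went from 35.4 to 11.8 FPKM (-1.51).

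Several factors of trophoblast stem cells rose. Elf5, which holds the trophoblast fate after implantation, had 16.1 FPKM in TE and 124 FPKM in ExE (log2 ratio 2.87), against 0 in Epi and 0.260 FPKM in VE. Esrrb, an orphan nuclear receptor of stem cells, had 0.00428 and 13.6 FPKM (3.86). Sox2, shared with pluripotent cells, had 0.410 and 7.82 FPKM (2.65), and Sox21 had 0.858 and 7.57 FPKM (2.21). Sox2 stood at 4.14 FPKM in Epi, below its ExE level. Ascl2, an imprinted factor of the ectoplacental cone, had 0.141 and 30.6 FPKM (4.79). Hand1, a driver of giant cell differentiation, had 0.0140 FPKM in TE and 45.5 FPKM in ExE (5.52). Its level in TE was also below that in morula (37.4 FPKM) and ICM (5.04 FPKM). Zfp42 and Id1 were listed at 0 in TE, with 81.4 and 51.6 FPKM in ExE. Zfp42 is one of the 180 genes at 0 in every other column.

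Other core factors stayed within 2-fold. Eomes, a T-box factor of the trophectoderm and its stem cells, had 101 FPKM in TE and 61.0 FPKM in ExE, a log2 ratio of -0.72. Tfap2c had 46.3 and 66.6 FPKM (0.51), and Tead4, the partner of Yap that switches on Cdx2, had 23.7 and 13.9 FPKM (-0.73). Id2 stayed high, with 1068 and 553 FPKM (-0.95). Tfap2c was listed at 0 in Epi and at 0.146 FPKM in VE.

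Signals made by the ExE were measured as 23 genes, of which only 7 could be compared: 2 rose and 2 fell, with a median log2 ratio of 0.84. Bmp4, which induces germ cells and mesoderm in the neighbouring epiblast, was listed at 0 in TE and stood at 64.0 FPKM in ExE, split as 34.1 maternal and 29.9 paternal. It was also at 36.3 FPKM in ICM and at 0 in Epi. Bmp8b, its partner in germ cell induction, rose from 0.159 to 40.4 FPKM (log2 ratio 5.16) and was under 0.5 FPKM in Epi and VE. The growth factor Igf2 rose from 1.36 to 26.0 FPKM. Wnt7b (24.2 and 49.1 FPKM, 0.99) and Wnt6 (10.4 and 19.4 FPKM, 0.84), ligands of the Wnt pathway, stayed just under 2-fold. Pcsk6, a convertase that cuts the Nodal precursor, was level at 8.20 and 10.2 FPKM. Pdgfa, a growth factor for primitive endoderm, fell from 123 to 25.4 FPKM, and the ephrin Efna1 from 51.2 to 10.9 FPKM. Nodal and the activin antagonist Fst were at 0 in TE and at 5.79 and 5.62 FPKM in ExE. Nodal was at 39.4 FPKM in VE.

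The Fgf receptor and Erk list leaned upward. Of 23 measured genes 13 were compared: 5 rose, none fell, and the median was 0.80. The receptor Fgfr2 itself was level, with 20.9 FPKM in TE and 15.5 FPKM in ExE. Etv5, an Ets factor induced by Erk, rose from 0.0494 to 20.3 FPKM (log2 ratio 4.34), and Dusp6, an Erk phosphatase, from 36.0 to 73.7 FPKM (1.01). The inhibitors Spry1 (3.02 and 10.7 FPKM) and Spred2 (1.18 and 5.50 FPKM) rose as well, as did the adaptor Grb2. Spry4 was at 0 in TE and at 9.14 FPKM in ExE. Dusp6 lost its call with the VE share subtracted (0.99).

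Among genes of the Bmp, Smad and Nodal response, 13 of 26 were compared, 4 rose and 1 fell, beside 19.4% and 17.0% of all genes. Smad3, a transducer of Nodal signals, rose from 0.00785 to 6.37 FPKM, and Smad1, a transducer of Bmp signals, from 0.152 to 5.84 FPKM (2.99 FPKM with the VE share subtracted). Id3, a target of Bmp, rose from 10.1 to 28.0 FPKM. In the Hippo list, 4 of 17 compared genes rose and 3 fell, close to the shares of all genes, with a median of 0.10. Cyr61, a Yap target, rose from 7.53 to 40.7 FPKM. Amot, a junction protein that holds Yap in the cytoplasm, rose from 2.16 to 32.1 FPKM, but it stood at 338 FPKM in VE and its log2 ratio was -1.25 with the VE share subtracted.

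**Figure D2:**
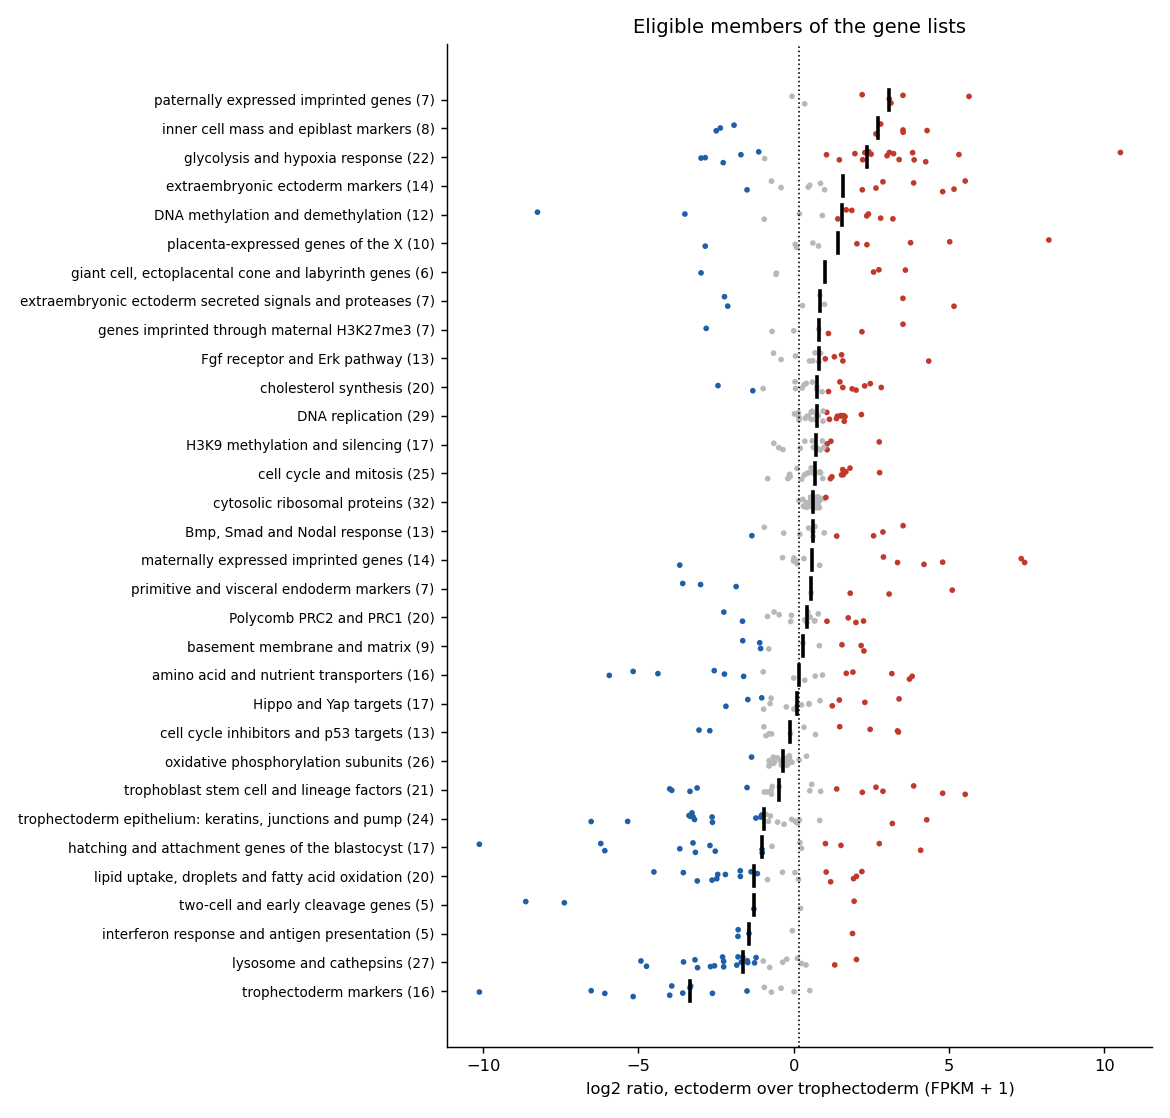
Log2 ratio of ExE over TE on FPKM plus 1 for the compared members of each gene list with at least 5 such members, 1 point per gene, with the list median as a black bar and the median of all compared genes, 0.18, as a dotted line. The glycolysis list has a median of 2.35 and the lysosome list one of -1.64.

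Among genes of the blastocyst epithelium more fell than rose. Of 28 keratin, junction and pump genes, 24 were compared: 12 fell, 2 rose and 10 stayed between, beside 17.0% fallen and 19.4% risen of all genes, with a median log2 ratio of -0.97. Krt8 and Krt18, the paired keratins of simple epithelia, had 1502 and 1716 FPKM in TE and 149 and 279 FPKM in ExE (-3.32 and -2.62). The water channels Aqp3 (177 and 0.940 FPKM, -6.52) and Aqp9 (41.5 and 0.0429 FPKM, -5.35), and Atp1b1, the sodium pump subunit of cavity formation (117 and 11.2 FPKM, -3.28), fell with them. Tight junction genes followed, with Cldn4 at 524 and 56.3 FPKM, Cldn7 at 396 and 63.2 FPKM and Ocln at 31.4 and 2.43 FPKM.

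Other genes of the epithelium were level or rose. Cdh1, the E-cadherin of adherens junctions, had 87.8 FPKM in TE and 70.5 FPKM in ExE, within 2-fold. Krt19 rose from 2.09 to 59.0 FPKM (log2 ratio 4.28), and Ezr, which ties the membrane to actin, from 13.8 to 133 FPKM (3.17). With the VE share subtracted, these ratios were 4.11 and 3.07.

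Genes of hatching and attachment also fell more often than they rose: of 33 measured, 17 were compared, 10 fell and 4 rose, and the median was -1.02. Besides Tspan8, the decreases included Spp1, the integrin ligand osteopontin (81.1 FPKM in TE and 0.105 FPKM in ExE), and Ptges, a prostaglandin E synthase (70.7 and 0.0575 FPKM). Lgals1, a galectin, went from 1215 to 127 FPKM, the membrane protein Anxa2 from 453 to 49.5 FPKM, and the proteoglycan Sdc4 from 326 to 49.4 FPKM. Plaur, the urokinase receptor of invading cells, rose from 1.20 to 36.3 FPKM (4.08), and the calcium-binding protein S100a6 from 7.98 to 59.5 FPKM (2.75). Markers of later trophoblast hardly entered the comparison: of 29 measured giant cell, ectoplacental cone and labyrinth genes, 6 were compared, and 16 were at 0 in ExE. Among the 6, Podxl, a sialomucin, rose from 0.00750 to 11.2 FPKM (3.41 FPKM with the VE share subtracted) and Plac8 from 0.248 to 7.34 FPKM.

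Most genes of glycolysis rose. Of 29 measured genes of glycolysis and the hypoxia response, 22 were compared: 16 rose and 5 fell, against 19.4% and 17.0% of all genes, and the median log2 ratio was 2.35. From the import of glucose onward, the transporter Slc2a1 had 32.5 FPKM in TE and 351 FPKM in ExE (3.39), and the hexokinase Hk1 had 0.0599 and 14.6 FPKM (3.88). Gpi1, the next enzyme, had 47.8 and 259 FPKM, and the phosphofructokinases Pfkp (0.0869 and 42.3 FPKM) and Pfkl (21.9 and 127 FPKM) rose with it. The enzymes of the lower pathway were higher as well: Tpi1 189 and 742 FPKM, Pgk1 81.6 and 661 FPKM, Pgam1 72.5 and 680 FPKM, Eno1 110 and 1570 FPKM, and Pkm 121 and 1027 FPKM. Gapdh rose from 9.13 to 46.1 FPKM. Aldoa, the aldolase between these steps, was at 1232 FPKM in ExE and at 0 in every other column, so it gives no ratio. Slc16a3, which exports lactate, was at 0 in TE and at 43.9 FPKM in ExE.

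Pdk1, a kinase that keeps pyruvate from the mitochondria, rose from 0.353 to 24.7 FPKM (log2 ratio 4.25). Members that fell were the isoforms Slc2a3 (229 and 104 FPKM) and Hk2 (38.3 and 11.1 FPKM), so the hexokinase and transporter isoforms moved in opposite directions. Ndrg1, induced by hypoxia and stress, fell from 450 to 55.9 FPKM, as did Egln1, the oxygen-sensing prolyl hydroxylase (30.6 and 3.38 FPKM), and the collagen hydroxylase P4ha2. The counts of 16 and 5 were the same with the VE share subtracted. In comparisons that share no sample with this one, 15 of 23 list genes rose and 6 fell from ICM to Epi, and 8 of 20 rose and 5 fell from ICM to VE. Pfkp and Hk1 did not rise there: Pfkp was at 11.4 FPKM in ICM, 4.94 in Epi and 0.628 in VE, and Hk1 was at 1.501, 1.12 and 0.361 FPKM.

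Genes of fatty acid use fell more often than they rose. Of 27 measured genes of lipid uptake, droplets and fatty acid oxidation, 20 were compared: 11 fell and 5 rose, beside 17.0% and 19.4% of all genes, with a median of -1.27. Fabp3, a carrier of fatty acids and the third highest gene in TE, went from 4839 to 561 FPKM (log2 ratio -3.11). Plin2, which coats lipid droplets, went from 265 to 21.6 FPKM (-3.56). Acadl, the dehydrogenase for long chains, went from 331 to 13.6 FPKM (-4.50), Hadh from 305 to 55.0 FPKM, and Etfb, which takes on the electrons of the pathway, from 433 to 69.0 FPKM. Cpt1a, the entry step into mitochondria, fell as well (-2.48), whereas Cpt2 rose (1.19). Other members that rose were Scarb1, a lipoprotein receptor (3.66 and 20.3 FPKM), and Apoe, a lipoprotein component (73.7 and 302 FPKM). Apoe was at 1578 FPKM in VE, and its log2 ratio of 2.02 was 1.05 with the VE share subtracted. Oxidative phosphorylation changed little: of 26 compared subunits, 1 (Cox5a) fell and none rose, and 24 had ratios below 0, with a median of -0.34.

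Most lysosomal genes fell. Of 30 measured, 27 were compared: 18 fell and 2 rose, and the median was -1.64. Psap, the precursor of the saposins that help degrade sphingolipids, had 780 FPKM in TE and 24.8 FPKM in ExE (log2 ratio -4.92). Enzymes that remove sugars from glycolipids and glycoproteins fell with it: Hexa had 166 and 5.24 FPKM, Glb1 57.2 and 3.97 FPKM, Gla 56.8 and 5.38 FPKM, and Neu1 72.8 and 7.61 FPKM. The membrane protein Lamp1 had 555 and 198 FPKM and the protease Ctsd 200 and 55.2 FPKM. The 2 members that rose, Ctsh (4.19 and 20.03 FPKM) and Ctsz (40.5 and 102 FPKM), were at 188 and 245 FPKM in VE, and neither kept its call with the VE share subtracted (-0.63 and 0.95). From ICM to Epi 20 of 25 genes of the list fell, and from ICM to VE 13 of 27.

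**Figure D3:**
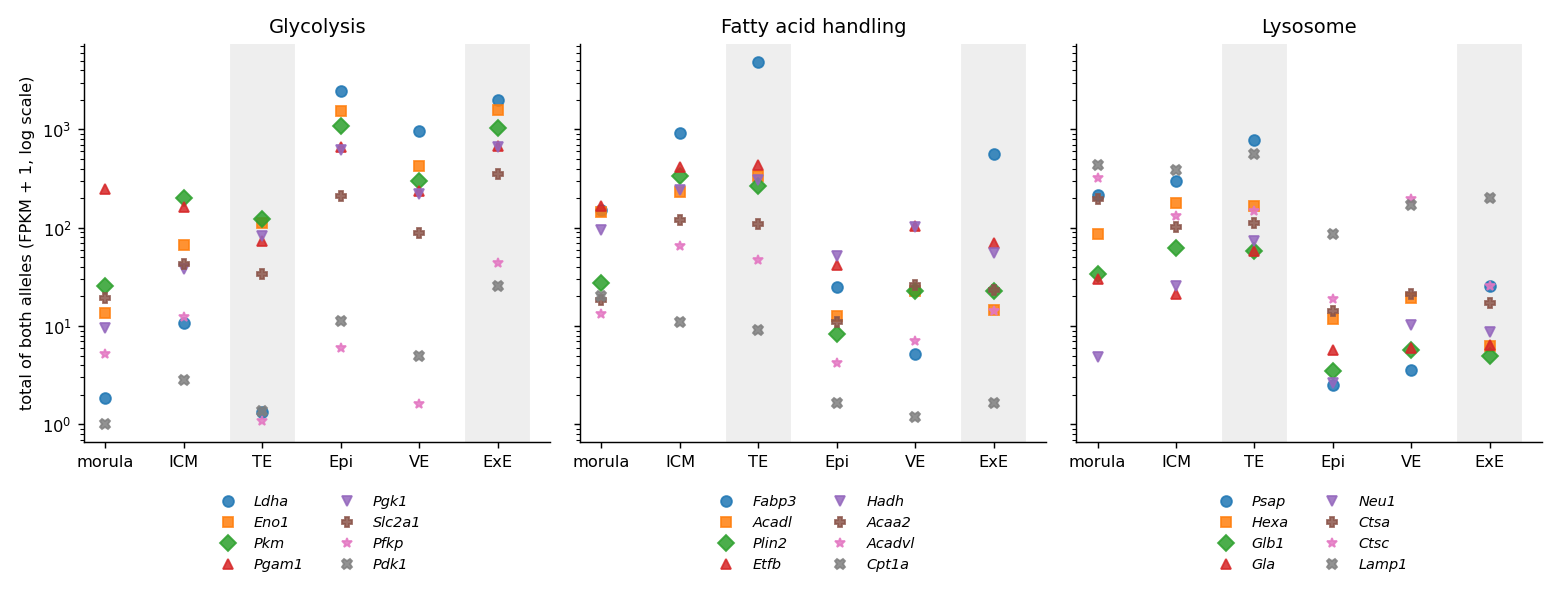
Total FPKM plus 1 (log axis) of 8 glycolysis genes, 8 genes of fatty acid use and 8 lysosomal genes. Columns are morula, ICM, TE, Epi, VE and ExE, with 1 marker shape per gene in each panel. Ldha goes from under 10 FPKM before E6.5 to 1972 FPKM in ExE, while Fabp3 goes from 4839 FPKM in TE to 561 FPKM in ExE.

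Cholesterol synthesis leaned upward, with 8 of 20 compared genes risen, 2 fallen and a median of 0.74. Sc5d (1.81 and 18.8 FPKM) and Cyp51 (1.13 and 10.7 FPKM), enzymes of the late pathway, rose. Insig1, the sterol sensor that holds the pathway back, fell from 96.3 to 16.9 FPKM. Nutrient transporters went both ways, with 5 of 16 risen and 6 fallen, beside 19.4% and 17.0% of all genes. Their median was 0.18, as for all genes. Slc1a1, a glutamate and cysteine carrier, fell from 70.6 to 0.167 FPKM, the zinc carrier Slc39a2 from 121 to 2.37 FPKM, and the biotin carrier Slc5a6 from 103 to 4.03 FPKM. The glutamine carriers Slc38a2 (2.26 and 42.04 FPKM) and Slc1a5 (0.403 and 18.7 FPKM) rose, as did Tfrc, the transferrin receptor for iron (3.28 and 37.1 FPKM).

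Among compared genes of DNA replication and mitosis some rose and none fell. Of 29 compared DNA replication genes 10 rose and none fell, and all 29 had ratios above 0, with a median of 0.74. Orc1, which marks replication origins, had 5.54 FPKM in TE and 28.6 FPKM in ExE, and Pcna, the sliding clamp, had 100 and 311 FPKM. Of 25 mitotic and cyclin genes 8 rose and none fell. Ccne1, the cyclin of S phase entry, had 22.9 and 161 FPKM (log2 ratio 2.76), Cdk4 157 and 459 FPKM, Cdk1 39.3 and 119 FPKM and Plk1, a kinase of mitosis, 33.5 and 103 FPKM. The 32 compared ribosomal protein genes were all above 0, with a median of 0.63, but 1 passed 2-fold, Rplp1 (1.03, and 0.92 with the VE share subtracted). Npm1, a nucleolar chaperone of ribosome assembly, rose from 921 to 2400 FPKM.

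Among cell cycle inhibitors and p53 targets, 4 of 13 compared genes rose and 2 fell, beside 19.4% and 17.0% of all genes. Trp53 itself rose from 15.6 to 170 FPKM (log2 ratio 3.37). The TE level was the low one: morula had 113 FPKM, ICM 152 FPKM and Epi 198 FPKM. Cdkn2c, an inhibitor of Cdk4 and Cdk6, fell from 8.89 to 0.193 FPKM and the antiproliferative gene Btg1 from 17.8 to 1.88 FPKM.

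DNA methylation genes went both ways, with more increases. Of 20 measured genes that write, maintain or remove the mark, 12 were compared: 7 rose and 2 fell, beside 19.4% and 17.0% of all genes, and the median was 1.55. Dnmt3b, which sets new methylation, had 26.7 FPKM in TE and 191 FPKM in ExE (log2 ratio 2.80), below its 517 FPKM in Epi. The maintenance enzyme Dnmt1 had 3.51 and 15.5 FPKM, its partner Uhrf1 11.8 and 64.0 FPKM, and Uhrf2 0.184 and 9.81 FPKM. Tet2, which oxidizes the mark, fell from 19.7 to 0.823 FPKM, and Dppa3, which shields methylation in the zygote, fell as given above. Dnmt3l, the cofactor of new methylation, was at 69.8 and 35.6 FPKM, a difference just under 2-fold. Of 20 compared Polycomb genes 4 rose and 2 fell, beside 19.4% and 17.0% of all genes, with a median of 0.44. Among them, Pcgf6 rose (11.8 and 50.4 FPKM) and Mtf2, an accessory subunit of PRC2, fell (122 and 24.8 FPKM). Of 17 compared genes of H3K9 methylation and silencing 4 rose and none fell, beside the same shares of all genes. Atrx, an X-linked remodeller, had 7.74 and 57.8 FPKM. With the VE share subtracted, Atrx was the 1 gene of that list past 2-fold.

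Imprinted genes were read by allele. Of 24 measured paternally expressed genes 7 were compared: 5 rose, none fell, and the median log2 ratio was 3.07. Mest, a hydrolase-like protein of growing embryonic tissues, went from 1.36 to 117 FPKM, with 117 FPKM on the paternal and 0.0350 FPKM on the maternal allele in ExE. Peg3, a zinc finger protein, had 26.9 paternal and 0.404 maternal FPKM in ExE, against 2.24 and 0 in TE. Peg10, a retrotransposon-derived gene needed for the placenta, had 8.19 paternal and 0.00522 maternal FPKM. Sgce, its neighbour, had both alleles at similar levels in TE (0.334 paternal and 0.468 maternal FPKM) and mostly the paternal one in ExE (6.75 and 0.536 FPKM). Igf2 had 0.722 paternal and 0.642 maternal FPKM in TE, and 21.2 and 4.77 FPKM in ExE. Snrpn, known as paternally expressed, was listed in ExE at 61.2 FPKM on the maternal allele and 0 on the paternal one. It belongs to the 180 genes found in the ExE column alone.

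Of 31 maternally expressed genes 14 were compared: 6 rose and 1 fell, with a median of 0.58. Phlda2 had 378 maternal and 4.64 paternal FPKM in ExE, and H19 208 and 5.81 FPKM. Ascl2 had 30.5 maternal and 0.137 paternal FPKM. Cdkn1c, a cell cycle inhibitor that limits placental growth, had 11.2 and 0.0394 FPKM, and Grb10, an adaptor that dampens growth factor receptors, 18.0 and 1.42 FPKM. The noncoding RNA Meg3 had 6.41 and 0.0559 FPKM, and its total was 3.32 FPKM with the VE share subtracted. In TE these 6 genes totalled between 0.0097 and 1.22 FPKM. The member that fell, Osbpl5, had both alleles in TE (5.19 maternal and 10.03 paternal FPKM).

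Genes imprinted through maternal H3K27me3, a Polycomb mark inherited from the oocyte, included 3 that were mostly paternal in both tissues. Sfmbt2, a Polycomb-related gene needed for trophoblast, had 5.54 paternal and 0.0384 maternal FPKM in TE, and 28.9 and 0.159 FPKM in ExE (log2 ratio of totals 2.19). Gab1, an adaptor of growth factor receptors, had 18.8 and 1.76 FPKM in TE and 35.7 and 0.958 FPKM in ExE, within 2-fold. Slc38a4, an amino acid carrier of the placenta, had 52.3 paternal and 0.0356 maternal FPKM in TE and 50.5 and 1.86 FPKM in ExE. In the same list Otx2, from 0.145 to 12.1 FPKM, rose with both alleles (5.66 maternal and 6.44 paternal FPKM), and it was at 106 FPKM in Epi and 87.5 FPKM in VE. Of 7 compared genes of the list, 3 rose and 1 fell, and with the VE share subtracted 1 of 5 rose and 2 fell.

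Among the genes that rose or fell, the 2 alleles mostly had ratios of the same sign. Of the 1276 genes that rose, 1264 had ratios of the same sign on both alleles, and 837 passed 2-fold on each allele alone. Of the 1116 that fell, 1076 had the same sign and 781 passed on each. These genes were picked by the sum of both alleles, which favours the same sign on each. The alleles also come from the same libraries, so this is no replication. On the X chromosome, whose paternal copy is silenced in trophoblast, the maternal allele carried most of the changes. Of 60 X-linked genes that rose, 34 passed 2-fold on the maternal allele alone, none on the paternal allele alone and 26 on both. Of 45 that fell, these counts were 24, 4 and 17. Paternal levels of X-linked genes were low, and the added 1 FPKM shrinks ratios between low values.

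As a group, 225 X-linked genes were compared, with 60 risen (26.7%), beside 19.4% of all genes, and 45 fallen, beside 17.0% of all genes. Their median log2 ratio was 0.13, against 0.18 for 6328 autosomal genes. Bex1 had 689 maternal and 10.7 paternal FPKM in ExE, and its relatives Bex2 (0.158 and 36.5 FPKM in total) and Bex4 (5.75 and 90.5 FPKM) rose with it. They stood at 59.2 and 215 FPKM in Epi and at 81.2 and 375 FPKM in VE. Morc4 had 172 maternal and 9.93 paternal FPKM. Gpc4, a glypican, rose from 0.170 to 23.3 FPKM, but was at 98.6 FPKM in VE. Pgk1, an X-linked enzyme of glycolysis, had 81.3 maternal and 0.316 paternal FPKM in TE, and 583 and 77.9 FPKM in ExE. Atrx likewise had 7.57 and 0.170 FPKM in TE, and 36.7 and 21.1 FPKM in ExE. Among placenta-expressed genes of the X, 10 of 18 were compared, 5 rose and 1 fell, and the homeobox genes Rhox6 (12.1 FPKM) and Rhox4e (12.8 FPKM) were at 0 in TE and all maternal in ExE. Plac1, needed for placental growth, was the one that fell, from 62.8 to 7.84 FPKM, with only the maternal allele listed above 0 in both tissues. The creatine carrier Slc6a8 (71.3 and 2.11 FPKM) and the ephrin Efnb1 (43.5 and 1.34 FPKM) had the next lowest X-linked ratios after C430049B03Rik (-4.61).

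Over the same days, the inner cell mass gives rise to the epiblast and the visceral endoderm, and those comparisons share no sample with ExE and TE. They share the ICM column with each other, and Epi was 1 sample. From ICM to Epi 13.6% of genes rose and 26.4% fell, and from ICM to VE 15.1% rose and 30.8% fell. Of the 1276 genes that rose in trophoblast, 1052 could be compared from ICM to Epi: 398 rose (37.8%) and 76 fell (7.22%). From ICM to VE 1064 could be compared, and 301 rose (28.3%) and 173 fell (16.3%). Of the 1116 genes that fell, 830 could be compared from ICM to Epi and 639 fell (77.0%), and 905 from ICM to VE, of which 592 fell (65.4%). Of the 816 that could be compared in both, 488 fell in both (59.8%) and 7 rose in both (0.858%). Of 975 risen genes that could be compared in both, 188 rose in both (19.3%) and 44 fell in both (4.51%). Over all 5562 genes that could be compared in both, 313 rose in both (5.63%) and 966 fell in both (17.4%). Read from the other side, over genes that could be compared in both, 398 of the 660 that rose from ICM to Epi rose in trophoblast (60.3%), and 639 of the 1460 that fell there fell in trophoblast (43.8%). For VE the shares were 301 of 659 (45.7%) and 592 of 1811 (32.7%).

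Other genes had a ratio near 0 or of the opposite sign in the other lineages. A ratio within 0.5 of 0, or of the opposite sign, in both other comparisons was found for 486 genes that rose and 107 that fell. These counts include genes too low in ICM, Epi and VE to be compared there by the rule used above. For such genes the added 1 FPKM keeps the ratio near 0. Ratios in the other lineages also leaned downward. Over genes compared in trophoblast too, their medians were -0.23 from ICM to Epi and -0.51 from ICM to VE. This lean makes the limit easier to meet for genes that rose, so 486 and 107 are not to be weighed against each other. The shares of all compared genes within these limits are not given. Esrrb, Gm9, Arl14, Snap91, Xkrx and Vax2, all named below, were under 1 FPKM in ICM, Epi and VE. The 10 largest of the first kind included Hand1, Pfkp, Etv5, Hk1, Plaur and Esrrb, described above. They also included Upp1, a uridine phosphorylase (3.69 FPKM in TE and 205 FPKM in ExE), and Fpgs, which traps folate in cells (4.76 and 93.7 FPKM). Socs2, a brake on cytokine signals, had 1.67 and 34.3 FPKM, and Gm9, an X-linked gene, had 0.986 and 23.9 FPKM. Upp1 was also high in ICM, at 359 FPKM, but low in morula (0.275 FPKM), Epi (6.49 FPKM) and VE (8.25 FPKM). Of the second kind, Fam213a, a peroxiredoxin-like protein, had 378 FPKM in TE and 6.33 FPKM in ExE, with 21.3 FPKM in ICM, 20.9 in Epi and 29.2 in VE. Arl14, Snap91, Xkrx and Vax2 followed, all under 20 FPKM in TE. The differences between lineages were not tested.

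**Figure D4:**
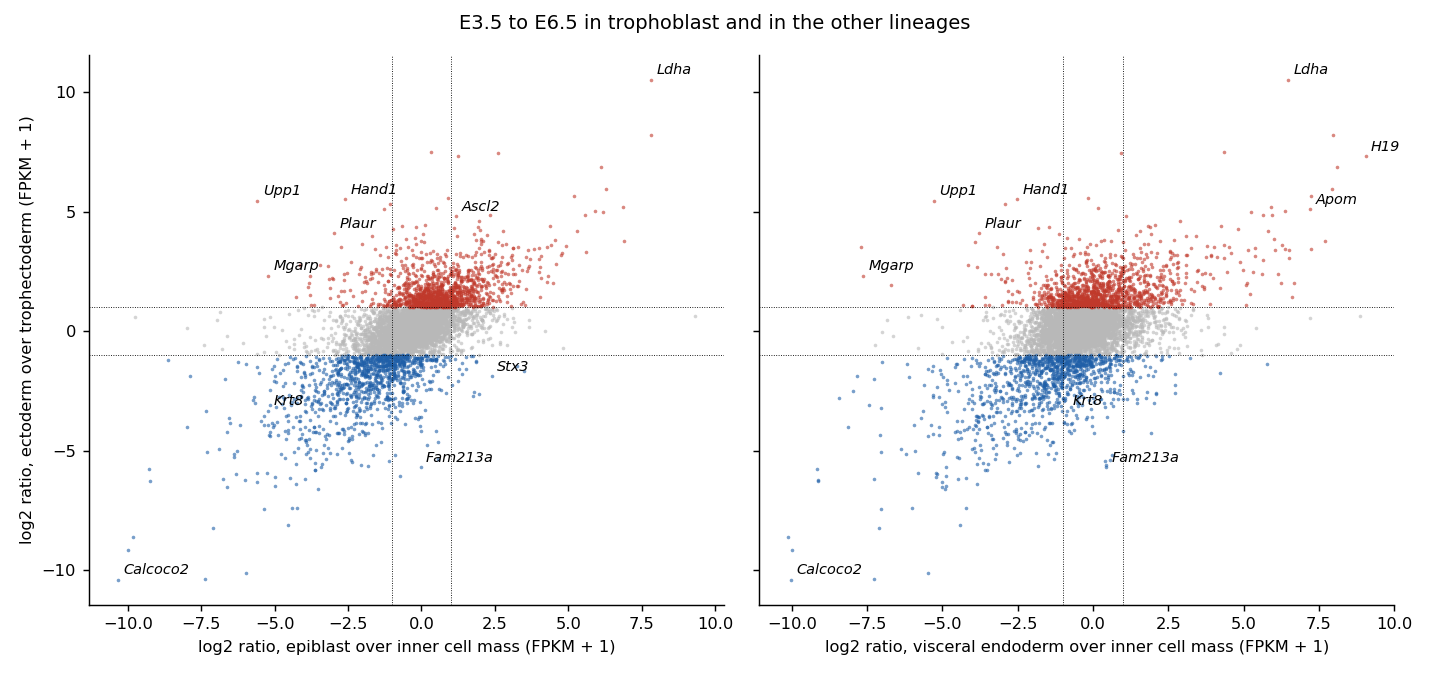
Log2 ratio of ExE over TE (vertical) against that of Epi over ICM (left panel, horizontal) and of VE over ICM (right panel, horizontal). Each point is 1 gene, and all ratios are on FPKM plus 1. Calcoco2 is near -10 on every axis, Ldha is high on every axis, and Hand1 and Upp1 are high in ExE over TE alone.

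Genes of the neighbouring embryonic lineage were also seen in ExE. Of 21 ICM and epiblast markers 8 were compared, 5 rose and 3 fell. Utf1, a chromatin factor of pluripotent cells, rose from 13.1 to 276 FPKM, close to its 369 FPKM in Epi. Tdgf1, the Nodal coreceptor, rose from 0.946 to 21.3 FPKM, against 104 FPKM in Epi and 0.156 FPKM in VE. Pou5f1 fell from 83.9 to 14.0 FPKM and Nanog from 30.7 to 7.35 FPKM. The primitive streak genes Mixl1 (43.0 FPKM) and T (9.86 FPKM) were at 0 in TE. In Epi they were at 0 and 0.196 FPKM, and Mixl1 was at 107 FPKM in VE. Of 7 compared endoderm markers 3 rose, and none of these, Apom, Amn and Hhex, kept its call with the VE share subtracted. The endoderm markers set that share, so this loss was fixed in advance and adds no information. The 3 that fell were Gata6, Dab2 and Lrp2, which TE also held (10.9, 209 and 19.1 FPKM). The part of neighbouring cells in these levels was not tested.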

How the data were processed

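Smart-seq2 libraries of female wild-type embryos were deposited by the authors as a stage table of FPKM values, with 1 column per allele and tissue. Per the submitters' processing notes, the tools were Trim Galore 0.6.4, HISAT2 2.2.0 and StringTie 2.1.1, with the mouse build mm9. The allele assignment of reads was not stated in the sources read. Replicates were pooled in the deposited columns, so there is no error between samples, and the columns are the authors' values. Without counts, depth is unknown and no interval can be given.

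The alleles were summed. 5 summary lines were left out, and no per-sample column lacked a label. Ratios were taken as log2 of FPKM plus 1, which understates changes of low genes. A gene was compared with a total of at least 5 FPKM in 1 tissue and above 0 in both, and called at 2-fold. Chromosomes came from RefSeq GRCm38.p6, which matched 23947 of 24083 genes, and promoter windows from its table. No coordinates of mm9 were used.

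Genes named are the 10 largest ratios in each direction, the highest levels, up to 8 members per list with the largest ratios plus members at 0 in 1 tissue, the 10 largest ratios in each direction not shared by the other lineages, and genes next to the limits. Others are named to check tissue identity, or were chosen after their values were seen. The members and the 35 lists were chosen with earlier results of these data known. The calling rule was tested on simulated data. Alternatives were the pseudocount, the minimum, the fold, genes at 0, centring, upper quartile scaling and single alleles. The subtraction of VE and the removal of genes higher in neighbouring tissues or low in every other column were added after seeing the data. The tables of knockout morulae and Eed-deleted embryos were not used here. Software was Python 3.11.15 with numpy 2.4.6, pandas 2.3.3 and matplotlib 3.10.9.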

Additional observations from a re-analysis of the deposited data

Results flagged for a closer look

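Some genes moved in opposite directions in the lineages: past 2-fold one way from TE to ExE, and past 2-fold the other way from ICM to both Epi and VE. Of these, 44 were higher in ExE than in TE and lower in both Epi and VE than in ICM, or 4.51% of 975 risen genes. The reverse was seen for 7, or 0.858% of 816 fallen genes. Over all 5562 genes compared in each lineage, 17.4% fell and 5.63% rose in both Epi and VE. Named are 5 of each kind, those whose smallest ratio of the 3 comparisons was farthest from 0. The difference between lineages was not tested, and each value comes from pooled columns. Those higher in ExE than in TE were Upp1 (log2 ratio 5.46), Plaur (4.08), Dcaf12l1 (3.52), Ranbp17 (2.39) and Mgarp (2.31). Each of these was higher in ICM than in TE. Upp1 was at 359 FPKM in ICM and 3.69 FPKM in TE, and Mgarp, a mitochondrial protein, at 232 and 5.85 FPKM. Those lower in ExE than in TE were Prrg4 (-2.63), the membrane fusion protein Stx3 (-1.89), Tmed3 (-1.78), Reep5 (-1.18) and Herpud1 (-1.09). These were lower in ICM than in TE. Stx3 was at 6.76 FPKM in ICM and 63.9 FPKM in TE, with 39.7 FPKM in Epi, 29.6 FPKM in VE and 16.5 FPKM in ExE. Tmed3, Reep5 and Herpud1 belong to the early secretory pathway, and Herpud1 is the least abundant of the 3, at 10.8 FPKM in TE and 4.54 FPKM in ExE.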

How the results depend on the processing

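Over the alternatives at 2-fold, between 797 and 1786 genes rose and between 814 and 1412 fell. The lowest count of increases, 797, came with a pseudocount of 5 FPKM, and paternal columns alone gave 828 of 4704 genes. At 4-fold the counts were 365 and 508. The median of all compared genes went from 0.18 to -0.0022 with centring and to 0.0447 with the VE share subtracted. The median of X-linked genes, 0.13, was 0.45 with genes at 0 kept, -0.0492 with centring, -0.78 over 56 genes in paternal columns alone and 0.0035 with the VE share subtracted. Without genes at least 5 times higher in a neighbouring tissue 1135 rose and 1019 fell. The median of the giant cell list turned from 1.0027 to -0.56 at a minimum of 10 FPKM, -0.40 and -0.13 in maternal and paternal columns alone, and -0.57 with both alleles above 0. The interferon list turned from -1.44 to 0.41 at a minimum of 1 FPKM. The mesoderm list, of 2 compared genes, turned from 1.72 to -0.0153 in maternal columns and -0.20 with both alleles above 0. The cause of these shifts was not tested. With the VE share subtracted, list medians turned for giant cell genes (-0.56) and endoderm markers (0.56 to -2.93, 1 gene left). They also turned for genes imprinted through maternal H3K27me3 (0.80 to -0.0080) and Hippo genes (0.0991 to -0.14). The endoderm markers set the share, so the change in their list was fixed in advance. Of 482 named or listed genes 255 were called. Over 10 alternatives other than the subtraction none of the 255 changed direction, 49 lost their call in at least 1, and 37 uncalled genes changed sign. These counts cover only settings in which a gene could still be compared, such as 411 of the 482 at a minimum of 10 FPKM. Dropping out of the comparison did not count there as losing a call. The subtraction, for which dropping out did count, ended 23 of the 255 calls. It turned Amot (3.39 to -1.25), Ctsh (2.02 to -0.63) and Apom (5.10 to -0.37). Apom is one of the markers that set the share. No paired analysis was possible because the columns pool replicates and carry no replicate number, and for the same reason no replicate could be left out.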
